A study of Homo sapiens with 4 samples.

Results

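The Krüppel-like factors described here are 10 genes, KLF2, KLF3, KLF4, KLF5, KLF6, KLF7, KLF9, KLF10, KLF11 and KLF13. They were taken by symbol from the 63568 gene identifiers of the deposited count tables, and their values in USP47-knockdown cells were compared with those in control cells. All 10 passed the filter on low counts that left 21932 genes for testing. The files hold 4 RNA-Seq libraries from HGC-27, a human cell line labelled as gastric carcinoma. Of these, 2 came from cells infected with lentivirus carrying a control (scrambled) shRNA and 2 from cells infected with lentivirus carrying an shRNA against USP47, which encodes a deubiquitinase. Both groups therefore carried a lentiviral vector, and every library derives from the same cell line. Stable lines were made with 2 independent shRNAs, but the labels do not say which of them each knockdown library carries. The design text also names DMSO as the vehicle of control cells, although no sample label assigns it to a library. The design text calls the samples biological duplicates, while nothing gives separate lines or infections for them, so p-values measure the spread between these samples only.

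Krüppel-like factors are transcription factors that bind GC-rich and CACCC sequences through zinc fingers at the carboxyl terminus, a domain they share with the SP proteins. Their amino-terminal parts differ and sort the family into activators (KLF2, KLF4, KLF5, KLF6 and KLF7), repressors that recruit the corepressor CtBP (KLF3), and factors that recruit SIN3A (KLF9, KLF10, KLF11 and KLF13). In the digestive tract, KLF5 is known from dividing crypt cells and KLF4 from differentiated surface cells. Several members are short-lived proteins removed through ubiquitination, and RNA-Seq measures none of that protein turnover.

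The promoters of KLF2, KLF6 and KLF11 are shown because these transcripts rose in the knockdown cells and because each holds a motif that bears on the family. RefSeq promoter sequences (GRCh38.p14, 250 bases before to 50 bases after a start) were matched by symbol for 8 of the 10 members, with 13 entries in all, and KLF3 and KLF10 had no entry. Capitals mark a MEF2 box in KLF2, the GGGCGG and CCAAT boxes (the latter as ATTGG on the printed strand) in KLF6, and the palindrome TGACGTCA, the full cAMP response element, in the second KLF11 entry.
KLF2 promoter, chr19:16324576-16324875, plus strand: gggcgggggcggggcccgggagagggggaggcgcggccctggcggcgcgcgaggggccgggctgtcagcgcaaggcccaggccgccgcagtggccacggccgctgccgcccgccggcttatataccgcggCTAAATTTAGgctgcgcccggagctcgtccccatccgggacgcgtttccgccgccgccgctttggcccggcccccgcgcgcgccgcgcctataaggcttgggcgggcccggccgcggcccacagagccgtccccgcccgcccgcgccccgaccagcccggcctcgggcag
KLF6 promoter, chr10:3785160-3785459, minus strand: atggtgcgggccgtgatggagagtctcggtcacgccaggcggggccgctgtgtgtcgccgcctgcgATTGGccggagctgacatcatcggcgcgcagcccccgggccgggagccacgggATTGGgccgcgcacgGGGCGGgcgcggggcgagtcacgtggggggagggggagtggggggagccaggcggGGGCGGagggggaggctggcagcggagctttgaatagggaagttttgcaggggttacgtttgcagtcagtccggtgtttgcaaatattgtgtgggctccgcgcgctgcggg
KLF11 promoter, chr2:10043971-10044270, plus strand: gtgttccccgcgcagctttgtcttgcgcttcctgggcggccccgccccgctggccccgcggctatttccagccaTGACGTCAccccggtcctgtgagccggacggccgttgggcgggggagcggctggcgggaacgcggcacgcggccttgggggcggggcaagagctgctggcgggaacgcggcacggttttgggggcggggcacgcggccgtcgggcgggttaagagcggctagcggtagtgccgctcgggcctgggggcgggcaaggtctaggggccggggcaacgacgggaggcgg

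A total of 13 motifs were searched on both strands in these windows and in all 35116 promoters of the table. A member counted as holding a motif if any of its windows matched, whereas each percentage is over single windows. Members with several windows therefore had more chances of a match, and the counts and percentages are not in the same unit. The MEF2 box, to which the MEF2 factors bind, was present in 2.99% of all promoters and in KLF2 alone among the 8 members, from base -120 to base -111 relative to the start. TGACGTCA was present in 1.85% of all promoters and in KLF11 alone, from base -176 to base -169, where it contains both copies of the shorter TGACG counted below and shares bases with a CACCC match. A CArG box, the binding site of serum response factor, was present in 1.29% of all promoters and in KLF7 alone, in its second entry.

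The common boxes separated the members less. GGGCGG, the core of the GC box that SP and KLF proteins bind, was found in at least 1 window of 7 of the 8 members (all but KLF9). It was present in 45.0% of all single promoter windows. CACCC was found in KLF5, KLF7, KLF11 and KLF13, and in 59.9% of all promoters. CCAAT was found in KLF5, KLF6, KLF7, KLF9 and KLF13, and in 34.6% of all promoters. TATAAA was found in KLF5 (11.5% of all promoters), TGACG in KLF4, KLF5, KLF11 and KLF13 (24.6%), and CAGACA, the SMAD-binding element, in KLF4 and KLF7 (16.9%). No member window held TGANTCA (7.71% of all promoters), CCGGAAG (10.3%), an NF-kB site (11.3%) or the full glucocorticoid response element (0.00285%). GC content was 80.7% in the KLF2 window, 70.7% in the KLF6 window and 32.7% in the KLF9 window, against a median of 58.7% over all promoters. Because genes with several starts have several windows, and the start used in HGC-27 cells was not measured, a match describes the letters of a window only.

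The libraries held between 15649899 and 20140273 counts. USP47 itself was at 80.0 and 66.1 CPM (counts relative to library size, scaled with edgeR's TMM factors) in the control libraries and at 36.0 and 21.5 in the knockdown libraries. It fell by 1.34 on the log2 scale (SE 0.21, edgeR adjusted p = 0.00362), and the 2 knockdown libraries were at 49.3% and 29.5% of the control mean. The labelled cell type was checked against its markers, and those of epithelium were at or near 0: KRT18 and KRT19 had 0 or 1 count in every library, and CDH1 had 8 to 28 counts. Of the mesenchymal markers, VIM was at 353 to 502 CPM, whereas CDH2 had 3 to 10 counts and was not tested. Of 6 gastric lineage markers, TFF1, TFF2, MUC5AC and GKN1 had 0 to 3 counts, and MUC6 and CLDN18 were tested with no call. Of the haematopoietic markers 3 were tested and of the endothelial ones 1, with 0 calls (edgeR) at unadjusted p-values over 0.05, and PTPRC had 8 to 12 counts. Epithelial and mesenchymal markers gave 4 tested genes, of which EPCAM, at 12 and 11 counts against 3 and 3, was called lower (edgeR adjusted p = 0.0416). In a bulk sample, fewer cells of a kind and less RNA per cell cannot be told apart. Identifiers with a symbol of 7SL, the signal recognition particle RNA, took 7.11% to 9.72% of the counts of a library, with overlapping groups. Mitochondrial genes took 5.62% and 5.68% in the control against 4.81% and 4.86% in the knockdown libraries. The 7SL identifiers, the mitochondrial genes and 1 abundant identifier chosen by its number, which may itself be a 7SL gene, were then removed before scaling. The same 5 members as below were called higher, with log2 fold changes of 1.08 for KLF2 and 0.95 for KLF6.

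Of the 10 members, 5 rose on USP47 knockdown and 0 fell at an adjusted p under 0.05. The 5 were KLF2, KLF6, KLF5, KLF11 and KLF9, in order of fold change. Over all 21932 genes tested, edgeR's quasi-likelihood test called 6.52% higher and 9.56% lower at an adjusted p under 0.05. The members were chosen with earlier results of these data known, so their count is a description. DESeq2 called the same 5 members higher and 0 lower, where it called 6.42% of the genes it tested higher. The median log2 fold change of the 10 members was 0.43, against -0.01 over all genes tested, and 9 of the 10 values were above 0. Both knockdown libraries lay above both controls for 8 members, a pattern that 29.3% of all genes showed, and below both controls for KLF10, a pattern shown by 31.7%. Counted by role, 3 of the 5 activators, 2 of the 4 SIN3A-recruiting factors and 0 of 1 CtBP-recruiting factor were called higher. With 1 library left out, calls were lost or gained depending on which library it was, among the members and over all genes. The log2 fold changes of the 5 members stayed above 0 in those fits. They ranged from 0.78 to 1.37 for KLF2, 0.73 to 0.87 for KLF5 and 0.73 to 1.15 for KLF6. The ranges were 0.40 to 0.58 for KLF9 and 0.63 to 0.86 for KLF11.

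**Figure D1:**
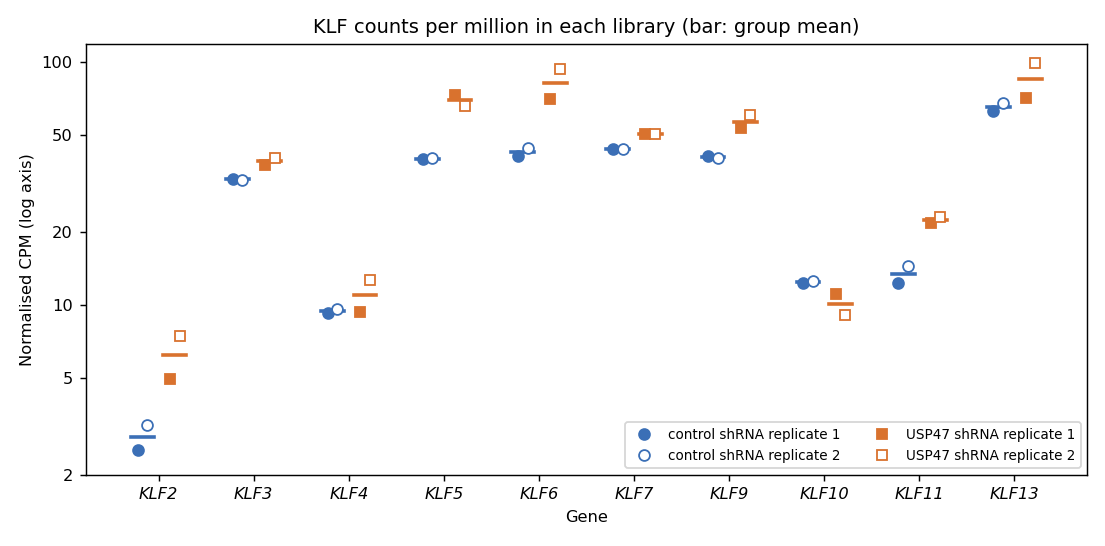
Normalised CPM of the 10 Krüppel-like factors (log axis) in each of the 4 libraries, with circles for control shRNA, squares for USP47 shRNA and a bar at each group mean. Both knockdown libraries lie above both controls for 8 members, among them KLF3, KLF7 and KLF13, which were not called. The groups overlap for KLF4, and KLF10 is the one gene with both squares below the circles.

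Among the activators, KLF2 (chr19:16435637-16439496, plus strand, GRCh37), which maintains quiescence in endothelial cells and lymphocytes, had the lowest level and the widest interval. Its counts were 43 and 63 (control) and 103 and 107 (knockdown), or 2.54 and 3.21 CPM against 4.95 and 7.46 CPM. The groups did not overlap, and the mean was 2.87 ± 0.478 CPM (SD, n = 2) in control cells and 6.20 ± 1.77 CPM (SD, n = 2) in knockdown cells. KLF2 was 2.11-fold higher, a log2 fold change of 1.08 (SE 0.25, 95% interval 0.53 to 1.63, edgeR adjusted p = 0.0172). Without control replicate 1 its log2 fold change was 0.93 and the adjusted p (edgeR) 0.0793. The pseudogene KLF2P1, which resembles KLF2 in sequence, had 117 and 88 counts in control and 173 and 83 in knockdown libraries, and KLF2P4 had 60 and 55 against 120 and 61. How reads shared with these copies were assigned was not tested, and the KLF2 value is uncertain to that extent.

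KLF6 (chr10:3818188-3827473, minus strand, GRCh37) was first described as a protein that binds a core promoter element and is studied as a tumour suppressor. Its level was 40.8 and 43.9 CPM in the control libraries and 70.3 and 93.6 CPM in the knockdown libraries. Every knockdown value lay above the controls, and the 2 knockdown libraries differed more from each other than the controls did (82.0 ± 16.4 against 42.4 ± 2.22 CPM, SD, n = 2). The gene was 1.93-fold higher, with a log2 fold change of 0.95 (SE 0.15, 95% interval 0.61 to 1.29, edgeR adjusted p = 0.00400). KLF6 was the only member called higher with each of the 4 libraries left out in turn, with log2 fold changes from 0.73 to 1.15.

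KLF5 (chr13:73629114-73651679, plus strand, GRCh37) promotes proliferation of crypt cells in the intestine. It was at 39.6 and 40.2 CPM in the control libraries and at 72.8 and 65.9 CPM in the knockdown libraries. The control values were close together, and both knockdown values were far above them (39.9 ± 0.428 against 69.4 ± 4.87 CPM, SD, n = 2). KLF5 was 1.74-fold higher, a log2 fold change of 0.80 (SE 0.13, 95% interval 0.52 to 1.08), and had the smallest adjusted p of the members (edgeR, 0.00361). Without control replicate 1 the log2 fold change was 0.79 and the adjusted p (edgeR) 0.0559.

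The remaining activators, KLF4 and KLF7, did not pass the test. KLF4 (chr9:110247133-110252763, minus strand, GRCh37), one of the factors used to reprogramme cells to pluripotency, was at 9.26 and 9.63 CPM in control and 9.33 and 12.7 CPM in knockdown libraries. The lower knockdown value lay between the controls, and the log2 fold change was 0.21 (95% interval -0.19 to 0.61, edgeR adjusted p = 0.459). Its value rested on 1 library: without knockdown replicate 1 it was 0.43, and without knockdown replicate 2 it was -0.015. The pseudogene KLF4P1 had 26 to 37 counts per library, beside 157 to 194 for KLF4.

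KLF7 (chr2:207938861-208038580, minus strand, GRCh37), which acts in axon growth, was at 43.8 and 43.7 CPM in control and 50.3 and 50.6 CPM in knockdown libraries. The replicates nearly coincided within each group and the groups did not overlap. The log2 fold change was 0.21 (95% interval -0.07 to 0.48, edgeR adjusted p = 0.275), in a test that pools the spread over genes. KLF7-IT1, a transcript within KLF7 on the same strand, had 18 to 29 counts per library. MIR2355, MYOSLID and ENSG00000224342 also overlap KLF7.

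Among the SIN3A-recruiting factors, KLF11 (chr2:10182976-10194963, plus strand, GRCh37) had the largest change. KLF11 and KLF10 are both known as early response genes of TGF-beta. KLF11 was at 12.3 and 14.4 CPM in the control libraries and at 21.7 and 22.9 CPM in the knockdown libraries. The groups were well apart and the knockdown replicates close together (13.3 ± 1.49 against 22.3 ± 0.825 CPM, SD, n = 2). It was 1.67-fold higher, with a log2 fold change of 0.74 (SE 0.15, 95% interval 0.41 to 1.07, edgeR adjusted p = 0.00997). Without control replicate 1 the log2 fold change was 0.63 and the adjusted p (edgeR) 0.181. ENSG00000271787, annotated on the opposite strand, had 0 counts in every library.

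KLF10 (chr8:103661012-103667953, minus strand, GRCh37) was the one member with a fold change below 0. It was at 12.3 and 12.5 CPM in the control libraries and at 11.1 and 9.06 CPM in the knockdown libraries. Both knockdown values lay below both controls, while the log2 fold change of -0.29 (95% interval -0.65 to 0.07) did not pass the test (edgeR adjusted p = 0.243). Without knockdown replicate 1 it was -0.45, and without knockdown replicate 2 it was -0.16. The 95% intervals of KLF10 and KLF11, its closest relative in the list, did not overlap. The difference between these genes was not itself tested.

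KLF9 (chr9:72999520-73029573, minus strand, GRCh37) is induced by glucocorticoids and thyroid hormone. It was at 40.8 and 40.1 CPM in the control libraries and at 53.2 and 60.1 CPM in the knockdown libraries. The groups did not overlap (40.4 ± 0.520 against 56.7 ± 4.91 CPM, SD, n = 2). KLF9 was 1.40-fold higher, the smallest change among the members called, with a log2 fold change of 0.49 (SE 0.13, 95% interval 0.20 to 0.77, edgeR adjusted p = 0.0300). Without control replicate 1 the log2 fold change was 0.50 (edgeR adjusted p = 0.308), and without control replicate 2 it was 0.47 (edgeR adjusted p = 0.288). With no filter on low counts the adjusted p (edgeR) was 0.0508.

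KLF13 (chr15:31619038-31727868, plus strand, GRCh37) activates the chemokine gene CCL5 in T cells and had the highest mean CPM of the members in both groups. It was at 62.4 and 67.4 CPM in control and 70.8 and 98.3 CPM in knockdown libraries. Both knockdown values lay above the controls, the first by little. The log2 fold change was 0.38 (95% interval 0.02 to 0.74, edgeR adjusted p = 0.134). Without knockdown replicate 1 it was 0.61, and without knockdown replicate 2 it was 0.13. The pseudogene UBE2CP4, on the same strand, had 1 or 2 counts per library.

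KLF3 (chr4:38665818-38703138, plus strand, GRCh37), the CtBP-recruiting repressor, was at 32.9 and 32.7 CPM in control and 37.7 and 40.1 CPM in knockdown libraries. The groups did not overlap, and the log2 fold change was 0.25 (SE 0.13, 95% interval -0.04 to 0.53, edgeR adjusted p = 0.209), which did not pass the test. KLF3-AS1 overlaps it on the opposite strand with 8 to 16 counts per library, and the pseudogene KLF3P1 had 24 to 43 counts. Whether the counting used strand is not given in the sources used here.

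The family genes outside the list did not pass the test. KLF12, a CtBP-recruiting repressor like KLF3, was at 59.1 and 52.9 CPM in control and 61.3 and 60.0 CPM in knockdown libraries. Its log2 fold change was 0.12 (95% interval -0.16 to 0.40, edgeR adjusted p = 0.561). KLF16, which recruits SIN3A, was at 46.9 and 52.4 CPM against 46.9 and 56.5 CPM. The log2 fold change of KLF16 was 0.06 (95% interval -0.25 to 0.37, edgeR adjusted p = 0.815). That value turned negative with scaling by library size alone and in a fit of length-scaled levels (limma on TPM). It also did so without control replicate 1 and without knockdown replicate 2. KLF1, KLF8 and KLF17 had 10 or fewer counts in every library and were not tested. KLF14 and KLF15 had 0 counts in every library, and KLF18 was not analysed here.

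The SP genes, which share the zinc-finger domain, were read from the same fit. Of 8 tested, 1 was called higher and 0 lower, and the median of their log2 fold changes was 0.21. The shares called over all genes tested were 6.52% higher and 9.56% lower. The gene called was SP8, a regulator of limb and brain patterning, at 35.4 and 38.9 CPM in control and 47.8 and 59.8 CPM in knockdown libraries (log2 fold change 0.53, SE 0.15, edgeR adjusted p = 0.0332). The difference between the KLF and SP lists was not tested.

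**Figure D2:**
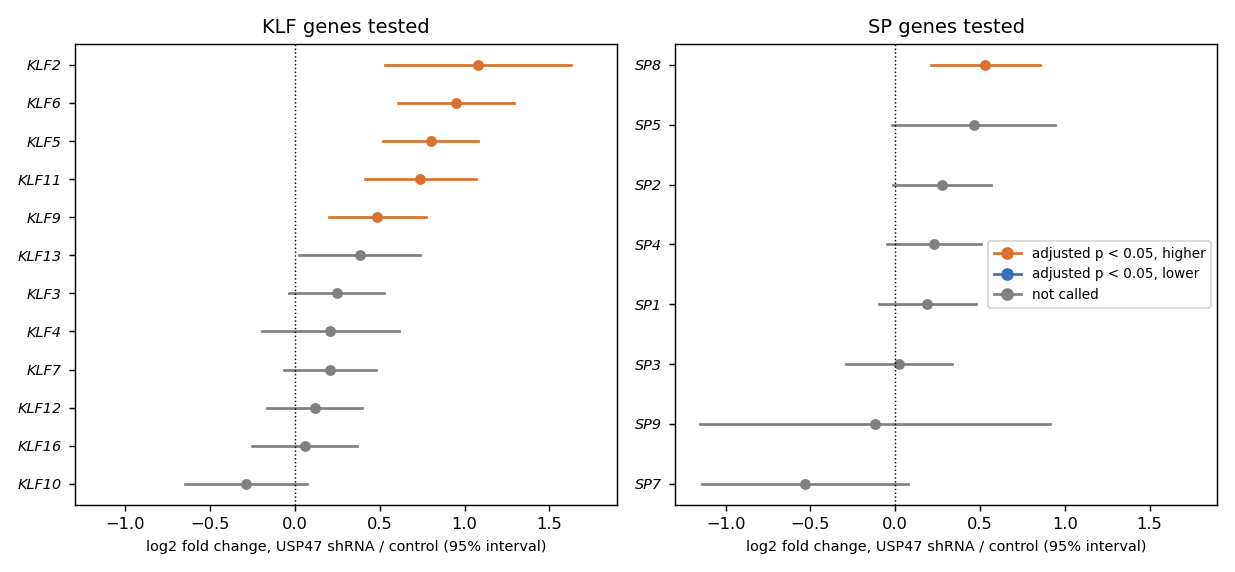
Log2 fold change with its 95% interval for the 12 KLF genes tested (left) and the 8 SP genes tested (right), ordered by size, with orange for genes called higher and grey for genes not called. The intervals of KLF2, KLF6, KLF5 and KLF11 overlap each other, and KLF10 sits at the foot of the KLF panel at -0.29.

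Levels were compared between family members on a per-length scale, the deposited TPM values (reads per base of gene length, scaled to the same sum in each library), within each library. One gene took 20.8% to 24.1% of all TPM in a library, so shares of the summed TPM of the KLF genes are given beside the levels. In the control libraries KLF16 ranked 1, at 23.1 and 22.8 TPM, and KLF5 ranked 2, at 14.8 and 13.2 TPM. KLF9 (11.5 and 9.91 TPM) and KLF13 (10.6 and 10.1 TPM) exchanged ranks 3 and 4 between the 2 libraries, and KLF6 followed at 9.68 and 9.18 TPM. KLF12, KLF3 and KLF7 lay between 6.05 and 7.68 TPM and did not keep one order. KLF10, KLF11 and KLF4 lay between 3.49 and 4.48 TPM, and KLF2 was last of the genes above 1 TPM, at 1.83 and 2.04 TPM. A total of 12 family genes exceeded 1 TPM in every library.

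In the knockdown libraries the order at the top differed. KLF5 was at 27.1 TPM and above KLF16 (23.0 TPM) in knockdown replicate 1, and at 18.4 TPM and below KLF16 (20.8 TPM) in replicate 2, so these levels do not fix an order for the pair. KLF6 had rank 3 in both, at 16.6 and 16.5 TPM, and rank 5 in both controls. KLF10, at ranks 9 and 10 in the controls, had ranks 10 and 12, at 4.02 and 2.46 TPM.

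As a share of the summed family TPM, KLF6 made up 9.27 ± 0.197% (SD, n = 2) in control and 13.3 ± 1.55% in knockdown cells. The share of KLF5 was 13.8 ± 0.281% and 17.9 ± 2.77%, and that of KLF2 was 1.91 ± 0.259% and 3.04 ± 0.617%. The share of KLF11 was 3.89 ± 0.316% and 4.86 ± 0.233%, whereas that of KLF9 was 10.5 ± 0.461% and 10.9 ± 0.0203%. The KLF9 means differed by less than the control SD, although both knockdown values (10.9% in each) lay above both controls (10.8% and 10.2%). KLF16 made up 22.6 ± 1.06% and 17.4 ± 0.808%, and KLF10 made up 4.16 ± 0.0902% and 2.54 ± 0.577%. Shares depend on the family sum, which was 106 and 97.6 TPM in control and 137 and 115 TPM in knockdown libraries. A smaller share, as for KLF16, is therefore not by itself a lower level. The 5 members called higher together held 39.3% of the family's TPM in each control library, and 50.6% and 49.4% in the knockdown libraries. Those 5 were chosen by their own change, so that sum is a description.

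**Figure D3:**
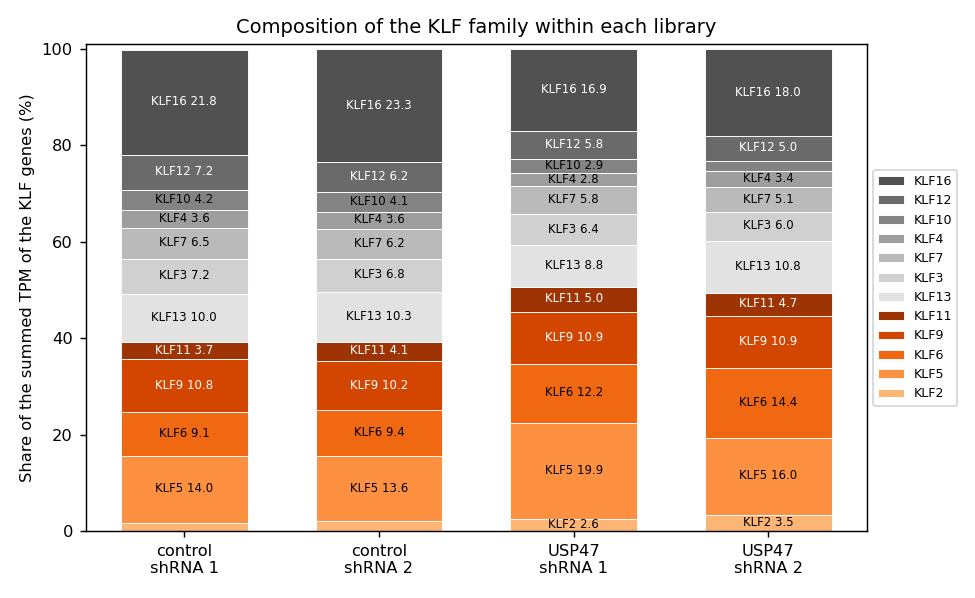
Share of the summed TPM of the KLF genes (percent, vertical axis) held by each gene in each of the 4 libraries, with the 5 members called higher in orange at the base and the other genes in grey. The orange part reaches 39.3% in both control bars and 50.6% and 49.4% in the knockdown bars, and the share of KLF16 at the top is smaller in the knockdown bars. Genes under 1 TPM are left out of the bars, and each share also depends on the family sum of its library.

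KLF2 and KLF4 are known to be induced by a kinase cascade in which MEKK2 or MEKK3 activates MEK5, MEK5 activates ERK5, and ERK5 activates the MEF2 factors. Of 7 genes of this cascade tested, 3 were called higher and 0 lower, and the median of their log2 fold changes was 0.33. Over all genes tested, 6.52% were called higher and 9.56% lower, with a median of -0.01. The list, like the others below, was chosen with earlier results of these data known, so its count is a description. MEF2D, a MEF2 factor, was at 85.5 and 89.2 CPM in control and 126 and 174 CPM in knockdown libraries, with the groups far apart (log2 fold change 0.78, SE 0.16, edgeR adjusted p = 0.0113). MAP3K2, which encodes MEKK2, was at 73.9 and 71.6 CPM against 108 and 94.2 CPM (log2 fold change 0.47, SE 0.13, edgeR adjusted p = 0.0330). MAP2K5, which encodes MEK5, was at 37.0 and 36.7 CPM against 48.2 and 51.3 CPM (log2 fold change 0.43, SE 0.12, edgeR adjusted p = 0.0413). MAPK7, which encodes ERK5, had a log2 fold change of 0.33 (edgeR adjusted p = 0.172), and MEF2A had one of -0.29 (edgeR adjusted p = 0.153), so the MEF2 genes differed in sign. These 2 genes are named to complete the cascade and were chosen after their values were seen. Of the 3 calls, all were lost without control replicate 1 (MEF2D adjusted p = 0.0994, edgeR), and those of MAP3K2 and MAP2K5 also without control replicate 2, with library size alone and with no filter on low counts. DESeq2 did not call MAP2K5 (adjusted p = 0.0545).

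Of 11 cofactor genes tested, 2 were called higher and 0 lower, and the median of their log2 fold changes was 0.30. Beside them, 6.52% of all genes tested were called higher and 9.56% lower. HDAC1, a histone deacetylase of the SIN3A complex, was at 87.6 and 78.5 CPM in control and 115 and 134 CPM in knockdown libraries (log2 fold change 0.59, SE 0.14, edgeR adjusted p = 0.0180). CREBBP, an acetyltransferase that acts as a coactivator of several KLF proteins, was at 243 and 254 CPM against 325 and 372 CPM (log2 fold change 0.49, SE 0.14, edgeR adjusted p = 0.0381). Of the genes that edgeR did not call, SIN3A had a log2 fold change of 0.41 (edgeR adjusted p = 0.0531). The deacetylase gene HDAC2 had one of -0.38 (edgeR adjusted p = 0.0817). DESeq2 called SIN3A (adjusted p = 0.0299) and the cofactor gene EP300 (adjusted p = 0.0358) higher, but did not call HDAC2 (adjusted p = 0.131). SIN3A, HDAC2 and EP300 are named after their values were seen.

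The list of ubiquitin ligases and deubiquitinases that act on KLF proteins gave 10 tested genes, of which 1 was called higher and 0 lower. The median of their log2 fold changes was 0.21. That count is near the share over all genes tested, 6.52% higher and 9.56% lower. FBXW7, the substrate receptor of a ligase that targets KLF2 and KLF5 for degradation, was at 17.2 and 16.9 CPM in control and 24.3 and 23.1 CPM in knockdown libraries (log2 fold change 0.48, SE 0.14, edgeR adjusted p = 0.0389). DESeq2 did not call it (adjusted p = 0.0782). The FBXW7 call was also lost with library size alone and with no filter on low counts, where KLF2 and KLF5 kept theirs. Each of these transcripts had a log2 fold change above 0, and the proteins were not measured in these files.

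Genes described as targets of KLF proteins moved in both directions. Of 26 listed, 20 were tested, 4 were called higher and 2 lower, and the median log2 fold change was -0.10. Among all genes tested, 6.52% were called higher and 9.56% lower, with a median of -0.01. SMAD7, the inhibitory SMAD, was at 15.4 and 16.7 CPM in control and 31.9 and 23.4 CPM in knockdown libraries (log2 fold change 0.79, SE 0.17, edgeR adjusted p = 0.0128). LGALS3, which encodes galectin-3, was at 7.31 and 7.75 CPM against 11.9 and 12.0 CPM (log2 fold change 0.66, SE 0.16, edgeR adjusted p = 0.0191), and DESeq2 did not call it (adjusted p = 0.0516). CCND1, which encodes cyclin D1, was at 198 and 206 CPM against 268 and 305 CPM (log2 fold change 0.50, SE 0.14, edgeR adjusted p = 0.0322). The fourth was TGFBR1, a TGF-beta receptor, with a log2 fold change of 0.42 (edgeR adjusted p = 0.0487), named after its values were seen because the count is small.

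The 2 targets called lower were NTRK2 and LAMA3. NTRK2, a neurotrophin receptor gene, was at 24.5 and 28.0 CPM in control and 14.2 and 15.0 CPM in knockdown libraries, and it fell by 0.85 on the log2 scale (SE 0.14, edgeR adjusted p = 0.00487). LAMA3, a laminin chain gene, was at 86.3 and 79.0 CPM against 52.9 and 51.5 CPM, and it fell by 0.66 on the log2 scale (SE 0.13, edgeR adjusted p = 0.00779). CDKN1A, the cell cycle inhibitor on which KLF4 and KLF6 are best known to act, was at 10.3 and 12.6 CPM against 6.64 and 13.9 CPM, with overlapping groups (log2 fold change -0.19, 95% interval -0.82 to 0.43, edgeR adjusted p = 0.675), and is named after its values were seen. Of the 14 genes called in the lists outside the family members, 1 kept its call without control replicate 1 (NTRK2) and 3 without control replicate 2, while 13 and 14 kept it without knockdown replicates 1 and 2. With DESeq2 10 kept it, with library size alone 8, with no filter on low counts 8 and with limma on TPM 0. Each kept its sign where it was given a value.

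**Figure D4:**
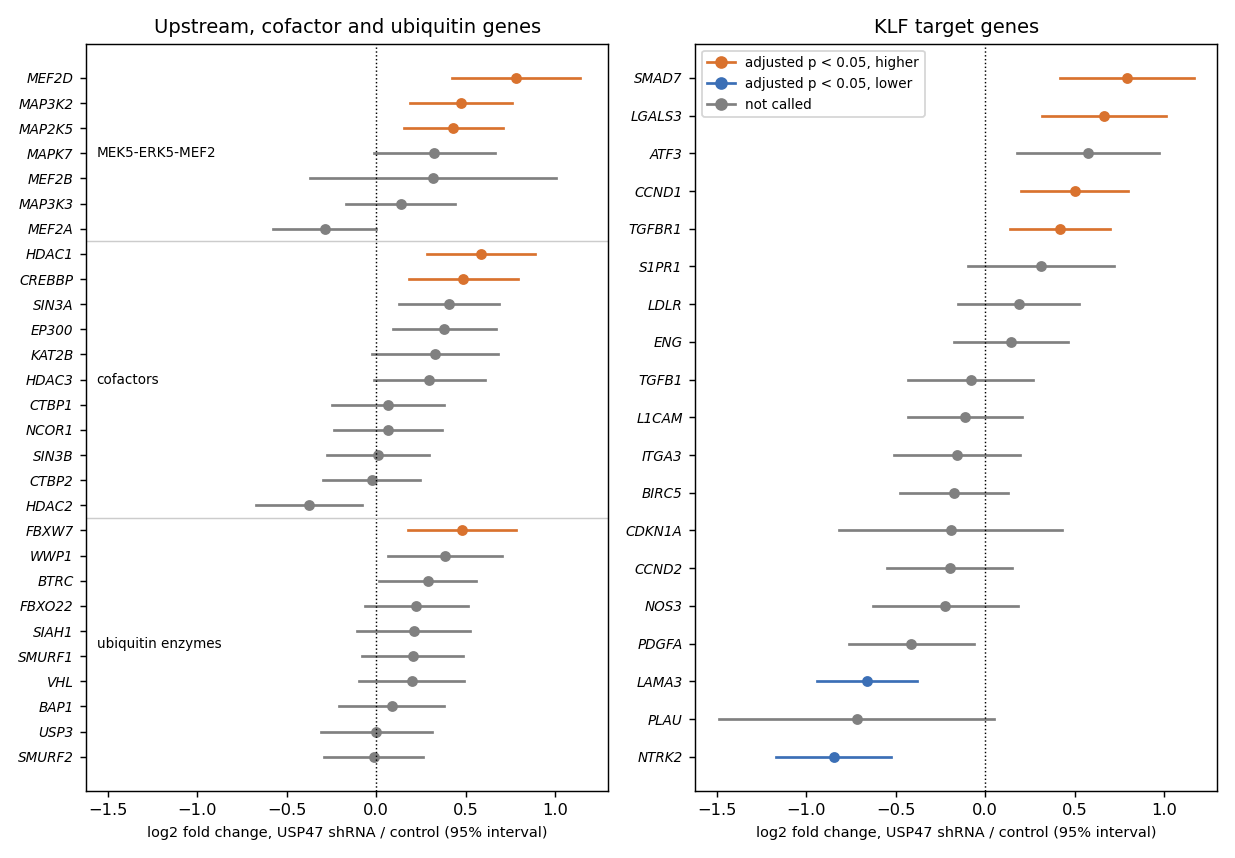
Log2 fold change with its 95% interval for the tested genes of the MEK5-ERK5-MEF2 cascade, the KLF cofactors and the ubiquitin enzymes (left) and for the tested KLF target genes reported here (right), with orange for genes called higher, blue for lower and grey for not called. Most points of the left panel lie above 0, with MEF2D at 0.78 the highest, whereas the targets spread from NTRK2 at -0.85 to SMAD7 at 0.79.

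The fold changes of the members were also compared across other tests, scalings, filters and subsets of the libraries. KLF2, KLF5, KLF6, KLF9 and KLF11 kept a positive value in each of the 13 alternatives with a value per gene, and KLF10 kept a negative one in each. The range was 0.78 to 1.37 for KLF2, 0.66 to 0.87 for KLF5, 0.73 to 1.15 for KLF6, 0.35 to 0.58 for KLF9 and 0.56 to 0.86 for KLF11. The calls varied more than the values: KLF6 was called in 12 of the 13, KLF2, KLF5 and KLF11 in 11, and KLF9 in 9. KLF13 was called in 2, KLF4 and KLF10 in 1 each, and KLF3 and KLF7 in 0.

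**Figure D5:**
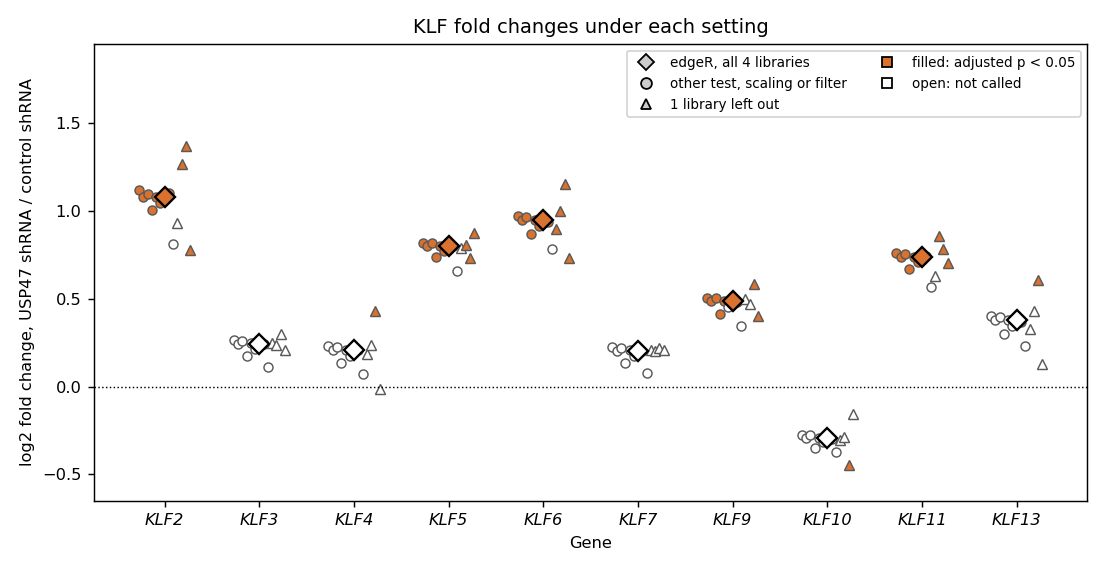
Log2 fold change of each of the 10 members (vertical axis) under each setting, with a diamond for edgeR on all 4 libraries, circles for another test, scaling or filter, and triangles for fits with 1 library left out. Filled symbols have an adjusted p under 0.05. Symbols of KLF2, KLF5, KLF6, KLF9 and KLF11 stay above 0, and those of KLF10 below it, while KLF4 crosses 0 at one triangle.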

How the data were processed

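RNA from HGC-27 cells infected with control or USP47 shRNA lentivirus was sequenced by Illumina RNA-Seq (2 libraries per group). The authors used STAR 2.7.5c for mapping to hg19 and SAMtools 1.9 to drop duplicate and low-quality alignments and, per the submitters' processing notes, used featureCounts (version not given) and DESeq2 1.26.0. The deposited count values are whole reads per gene, unnormalised. The deposited TPM and FPKM values are the authors' length-scaled levels. The labels and the study's methods name different library kits, and the methods speak of triplicates, whereas 2 libraries per group were analysed here.

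Counts were tested with edgeR 4.0.16 in R 4.3.3 (filterByExpr, TMM, robust quasi-likelihood fit, Benjamini-Hochberg adjustment over 21932 genes). The SE was derived from the log2 fold change and its F statistic, and 95% intervals use the moderated degrees of freedom (10.4). CPM values were scaled with TMM factors. Alternatives used DESeq2 1.42.0, limma 3.58.1 on log2(TPM + 0.5), other scalings and filters, a replicate block and each library left out. The code was tested on simulated data. Gene positions are from GENCODE on GRCh37. Reference sequences are from RefSeq, and protein sequences were not used here. Each value is limited by 2 libraries per group, and the count depth was 15649899 to 20140273 per library.

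All members, USP47 and the tested KLF genes outside the list were named with their values, and from the other lists at most the 3 genes with the smallest p among those called in each direction. Genes outside this rule are said to be named after their values were seen, apart from cell type markers. Members and lists were chosen with earlier results of these data known. An item of the target list is counted but not reported here.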

Additional observations from a re-analysis of the deposited data

How the results depend on the processing

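The count of members called higher was 5, and 4 to 6 with DESeq2, legacy edgeR, DESeq2 size factors, library size alone, abundant RNAs removed, no filter, at least 10 counts per library and the replicate block. It was 1 (KLF2) when a log2 fold change of at least 1 was also required, and 0 with limma on log2(TPM + 0.5), a fit that called 41 genes higher and 194 lower over all genes, that shifted the median of all genes to -0.11 on the log2 scale, and in which the smallest adjusted p of a member was 0.104 (KLF6). With 1 library left out it ranged from 1 to 7, and the count called lower, otherwise 0, ranged from 0 to 1 (KLF10, without knockdown replicate 1). In such fits the lone library is assumed to vary like the others.

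The numbers 1 and 2 pair no libraries in any source. Deviations of same-numbered libraries correlated at 0.213 across genes. With the replicate block, 6 members were called higher (KLF13 added, log2 fold change 0.37, adjusted p = 0.00253) and 3530 genes higher and 3892 lower over all genes, against 1430 and 2097 without it.

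Over all genes, library size alone gave 881 higher and 1919 lower, no filter 1008 and 1885, and DESeq2 1113 and 1171. Leaving out control replicate 1 gave 323 and 907, control replicate 2 gave 408 and 1007, knockdown replicate 1 gave 3770 and 3500, and knockdown replicate 2 gave 2941 and 3576. Requiring a log2 fold change of 1 left 327 and 889.

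Signs turned for genes without a call. KLF16 was at -0.018 with library size alone and -0.068 with limma, and from -0.079 to 0.19 with 1 library left out. KLF12 was at -0.0050 with limma. KLF4 ranged from -0.015 to 0.43 with 1 library left out. Among the 14 listed genes called outside the members, DESeq2 lost FBXW7, MAP2K5 and LGALS3 and gave EPCAM no adjusted p. Library size alone lost FBXW7, MAP3K2, MAP2K5, SMAD7, TGFBR1 and EPCAM, no filter lost SP8, FBXW7, MAP3K2, MAP2K5, TGFBR1 and EPCAM, at least 10 counts per library lost TGFBR1 and did not test EPCAM, and limma lost all 14. The causes of these differences were not tested. The KLF6 share of control family levels was 9.27% from TPM and from FPKM. KLF2, at 43 to 107 counts, is the member that depth limits most.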
